A study of Mus musculus with 9 samples.

Results

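The ETS family factors described here were Ets1, Fli1, Elf1, Elf4, Etv6 and Gabpa, and the measurement was the openness of chromatin at and around their genes in naive CD4+ T cells, helper T cells that are still to meet their antigen. Their peaks were those that the table of open chromatin regions assigned to one of these genes, together with the peaks it calls intergenic within 50 kb of the gene's listed transcripts. The rule gave 219 of the 115727 listed peaks: 66 for Etv6, 56 for Ets1, 51 for Fli1, 29 for Elf1, 17 for Elf4 and 0 for Gabpa. The assay was ATAC-seq: a transposase enters open DNA, cuts it and leaves adapters for sequencing. The libraries were 3 from Stat6_KO mice, which lack STAT6, the factor that carries the interleukin-4 signal, 3 from Il21e_KO mice and 3 from WT mice. Every group was of the C57BL/6 strain and untreated, with cells taken straight from the animal and enriched with a kit for naive CD4+ cells. The labels call the Il21e allele both Il21e KO and IL21KO, without stating which DNA is removed, and give no age. They do not say whether the 3 libraries of a genotype came from separate mice, so the p-values measure only the spread between these samples.

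ETS factors share a winged helix domain that binds DNA at a GGAA core. In T cells ETS1 is needed for the development and survival of resting cells, FLI1 acts in blood cell development and limits the expansion of effector CD8 T cells, and ELF4 restrains T cell division. ELF1 binds enhancers of T cell genes, ETV6 is mainly a repressor needed by blood stem cells, and GABPA, which works as a complex with GABPB subunits, drives mitochondrial and housekeeping genes and the interleukin-7 receptor. The comparisons asked whether loss of STAT6 or the Il21e allele goes with a change in accessibility at these genes.

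The libraries held 1049460 to 1802405 reads in peaks, and values are CPM, the reads of a peak relative to all reads in the listed peaks of that library, which sum to the same total in each. Il21e_KO 1 stood apart: it was the shallowest, lacked any read at 23.5% of the listed peaks, a share of 3.37% to 11.2% elsewhere, and had 42.7% of its reads in transcription start site (TSS) peaks, against 31.6% to 36.4%. Where it decides a value of these genes, that value is also given without it. The Stat6 exon 12 peak, read as a check of the Stat6_KO label, held 2.84, 1.77 and 1.83 CPM in Stat6_KO, 4.76, 9.45 and 7.21 CPM in Il21e_KO and 6.73, 7.01 and 12.3 CPM in WT. These were 5, 3 and 3 reads in Stat6_KO. The difference from WT, -1.59 ± 0.39 in log2, did not pass the adjustment over all tested peaks. All 12 CD4 T cell marker genes had a TSS peak, and their peaks summed to 1438 to 1535 CPM in Stat6_KO, 1490 to 1927 CPM in Il21e_KO and 1497 to 1699 CPM in WT. A TSS peak was also listed for all 8 B cell markers, 6 of 8 CD8 T and NK cell, 4 of 8 myeloid and 1 of 6 erythroid markers. Peaks of 8 B cell markers summed to 74.3 to 176 CPM over the libraries and those of 8 myeloid markers to 138 to 214 CPM. Those of 8 CD8 T and NK cell markers summed to 119 to 162 CPM and those of 6 erythroid markers to 68.6 to 102 CPM. The sums cover 137 CD4 T cell, 40 B cell, 25 myeloid, 16 CD8 T and NK cell and 6 erythroid peaks. Per kb of peak width, CD4 T cell markers held 19.7 to 26.4 CPM and B cell markers 4.58 to 10.8 CPM. Myeloid markers held 11.3 to 17.5, CD8 T and NK cell markers 13.6 to 18.4 and erythroid markers 13.4 to 19.96. The ranges of CD4 T cell and erythroid markers per kb thus overlapped over all libraries. The lowest CD4 T cell value, 19.7, was in Stat6_KO and the highest erythroid value, 19.96, in Il21e_KO. Within each genotype these ranges did not overlap. The myeloid genes Lyz2 and Cebpe and the erythroid genes Alas2 and Hbb-b1 had no listed peak. The mix of cell types in these samples was not measured. Where a sample is mixed, fewer cells of a type and less open DNA per cell cannot be told apart.

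Elf4 and Elf1 each have 2 transcript starts, and 4 of the 6 genes (Etv6, Elf1, Gabpa and Elf4) matched an entry of the RefSeq promoter table used here. Each sequence below runs from 250 bases before a start to 50 bases after it on the RefSeq mouse build GRCm38.p6, is written 5′ to 3′ on the strand of the gene, and has the ETS core GGAA, or TTCC on the opposite strand, in capitals. The Elf4 pair (minus strand, chrX:48463083-48463382 and chrX:48454270-48454569) and the Elf1 pair (plus strand, chr14:79480944-79481243 and chr14:79515424-79515723) are shown because the peak table gives a TSS peak under the gene's own name at only 1 start of each, and Gabpa (plus strand, chr16:84834874-84835173) because its region is listed under a neighbouring gene.
Elf4, upstream start: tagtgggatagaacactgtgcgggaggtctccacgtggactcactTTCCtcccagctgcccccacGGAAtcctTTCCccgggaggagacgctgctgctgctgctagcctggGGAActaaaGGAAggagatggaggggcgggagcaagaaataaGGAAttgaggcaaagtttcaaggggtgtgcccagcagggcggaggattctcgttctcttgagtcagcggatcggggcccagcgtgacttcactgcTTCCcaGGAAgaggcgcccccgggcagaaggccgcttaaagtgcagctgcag
Elf4, inner start: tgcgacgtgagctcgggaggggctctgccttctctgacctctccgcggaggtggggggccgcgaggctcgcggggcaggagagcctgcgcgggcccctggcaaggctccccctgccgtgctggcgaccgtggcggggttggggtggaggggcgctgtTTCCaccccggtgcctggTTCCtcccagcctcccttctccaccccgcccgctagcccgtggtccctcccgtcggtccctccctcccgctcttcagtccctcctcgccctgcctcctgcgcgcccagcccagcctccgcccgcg
Elf1, upstream start: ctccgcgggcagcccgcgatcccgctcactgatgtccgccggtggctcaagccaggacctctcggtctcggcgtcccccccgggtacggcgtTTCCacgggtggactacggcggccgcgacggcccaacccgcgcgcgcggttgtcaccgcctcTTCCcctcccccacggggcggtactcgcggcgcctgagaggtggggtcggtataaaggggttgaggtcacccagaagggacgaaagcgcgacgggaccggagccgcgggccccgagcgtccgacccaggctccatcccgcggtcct
Elf1, inner start: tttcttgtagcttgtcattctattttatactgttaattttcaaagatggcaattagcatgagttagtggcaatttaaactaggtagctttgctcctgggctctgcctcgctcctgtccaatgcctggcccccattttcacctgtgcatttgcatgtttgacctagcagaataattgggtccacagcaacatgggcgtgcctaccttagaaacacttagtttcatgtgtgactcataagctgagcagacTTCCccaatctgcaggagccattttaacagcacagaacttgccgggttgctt
Gabpa: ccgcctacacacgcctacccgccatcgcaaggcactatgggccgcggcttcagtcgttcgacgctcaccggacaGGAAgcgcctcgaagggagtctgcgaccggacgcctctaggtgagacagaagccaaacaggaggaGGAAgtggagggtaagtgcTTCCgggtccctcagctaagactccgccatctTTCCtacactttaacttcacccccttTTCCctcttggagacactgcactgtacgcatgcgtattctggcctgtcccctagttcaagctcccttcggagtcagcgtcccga
The upstream Elf4 promoter held 8 cores and was 60% G and C, and the inner one held 2 cores with 75.3% G and C and 29 CpG dinucleotides. For Elf1 the upstream promoter held 2 cores with 73.0% G and C and 43 CpG, whereas the inner one held 1 core with 44.7% G and C and 3 CpG. Gabpa held 5 cores, 1 of them within the longer form CCGGAA on either strand, with 59.3% G and C. The Etv6 promoter held 6 cores and 57.3% G and C. Over all 32851 RefSeq promoters of this length, 96.0% held GGAA on either strand, with a median of 3 cores, and 14.9% held CCGGAA. The median promoter was 52.7% G and C with 7 CpG. A match is a run of letters and was not tested as a binding site.

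Elf4 encodes the member that restrains T cell division, and its most accessible peaks did not lie at its listed start. Positions here are on mm9, the build named for the files. The Elf4 TSS peak (chrX:45815632-45816482) held 10.8, 17.1 and 12.2 CPM in Stat6_KO, 15.2, 20.8 and 16.1 CPM in Il21e_KO and 15.3, 15.6 and 12.3 CPM in WT. The first peak further inside the gene (chrX:45806696-45807995) held 28.98, 30.03 and 29.97 CPM in Stat6_KO, 39.1, 39.1 and 33.3 CPM in Il21e_KO and 37.9, 37.4 and 33.5 CPM in WT. Per kb of peak, the inner peak averaged 27.9 ± 1.84 CPM in WT and the TSS peak 16.9 ± 2.17 CPM in WT (SD, n = 3 each), and the inner peak held more CPM in every library. It spans 8315 to 9614 bases downstream of the listed start, and the 2 RefSeq starts of Elf4 on GRCm38.p6 lie 8813 bases apart, so the peak covers that distance. The builds were not converted into each other. A further peak 37548 bases inside the gene (chrX:45777532-45778762) was the strongest of all 17 over the 9 libraries, with 37.2 ± 2.20 CPM in WT. An intergenic peak 370 bases past the end of the gene (chrX:45762716-45763856) had 23.3 ± 4.78 CPM in WT.

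Elf1, which binds enhancers of T cell genes, had its TSS peak (chr14:79915098-79915976) at the inner of the 2 starts in the table, which lie 34480 bases apart. The upstream start lies 75 bases from the listed start of Wbp4, a spliceosome gene on the other strand, and inside a TSS peak listed under Wbp4 (chr14:79880415-79881961). That peak was looked up after no Elf1 row was found there. It held 35.8, 36.5 and 43.4 CPM in Stat6_KO, 60.03, 37.8 and 34.95 CPM in Il21e_KO and 40.998, 45.2 and 39.98 CPM in WT. The genotypes overlapped, and accessibility at this shared start cannot be divided between Elf1 and Wbp4. The first peak listed under Elf1 (chr14:79883836-79884148) begins 2835 bases inside the gene and averaged 6.41 ± 0.947 CPM in WT. The peak at the inner start held 17.6, 18.8 and 21.4 CPM in Stat6_KO, 30.5, 19.5 and 18.9 CPM in Il21e_KO and 17.1, 24.9 and 19.99 CPM in WT. These ranges overlapped between the genotypes. Its strongest other peak lay 14182 bases further in (chr14:79929663-79930576), with 25.8 ± 5.63 CPM in WT. That peak also had the smallest p of Elf1 in Stat6_KO against Il21e_KO, by -0.25 ± 0.25 in log2 (limma-trend adjusted p = 0.814). Without Il21e_KO 1 that value was -0.03 ± 0.20.

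Gabpa had no row in the table, so it has no member peak and no level of its own. The RefSeq start of Gabpa lies between 2 starts of Atp5j, which encodes a subunit of the mitochondrial ATP synthase and runs on the other strand, 148 bases from 1 and 501 bases from the other. The Atp5j TSS peak (chr16:84834679-84836589) extends 718 and 1192 bases to either side of the listed Atp5j start, so it spans both of these distances. It was chosen after Gabpa was found to have no row. The peak held 40.3, 44.7 and 37.3 CPM in Stat6_KO, 62.9, 43.5 and 44.4 CPM in Il21e_KO and 49.6, 56.8 and 55.5 CPM in WT. Each Stat6_KO value lay below each WT value, with a log2 fold change of -0.40 ± 0.16 (SE, 95% interval -0.74 to -0.05), and the call failed the adjustment over all peaks (limma-trend adjusted p = 1.00). Accessibility at a shared start cannot be divided between Gabpa and Atp5j.

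Etv6, a repressor, spread over the longest gene, 234 kb on chr6:133985718-134220166, and had more assigned peaks than 99.7% of the genes with a peak. Ets1, Fli1, Elf1 and Elf4 exceeded 98.9%, 98.9%, 98.5% and 94.3% of genes. Ets1 (chr9:32503627-32565406) was the most densely covered, with 5.34 assigned peaks per 10 kb, and the others had 2.47 to 2.88. Ets1 also had the most flanking peaks, 23, followed by 18 for Fli1, 8 for Etv6, 2 for Elf4 and 0 for Elf1. Fli1 and Ets1 are neighbours on chromosome 9, with their spans 155 kb apart, and 9 more intergenic peaks lay between the windows of these genes without belonging to either. Of the Fli1 flanking peaks 7, and of the Etv6 flanking peaks 3, were nearer the listed start of another gene.

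**Figure D1:**
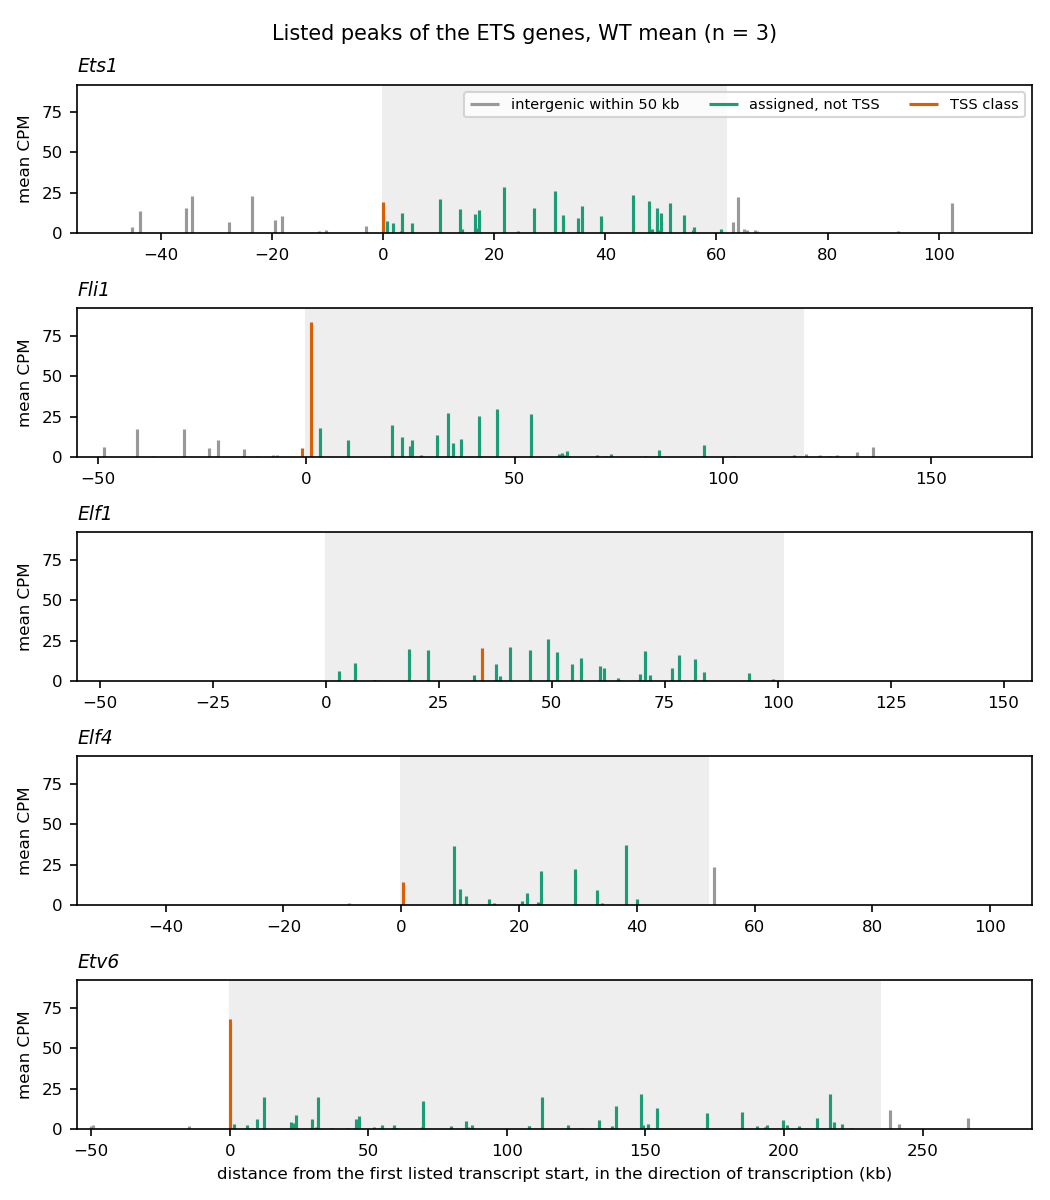
Peaks of the 5 genes with listed peaks, each drawn as a line at its distance in kb from the first listed start, with the mean WT CPM (n = 3) as height and the transcript span shaded. Heights are not divided by peak width. Fli1 and Etv6 have a tall TSS peak of 83.8 and 68.2 CPM, whereas the Elf4 TSS peak of 14.4 CPM is lower than peaks inside the gene.

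Most peaks lay in introns or in the class the table names 5′ UTR exon. Introns held 30 of the 33 assigned Ets1 peaks, 30 of 33 for Fli1, 30 of 58 for Etv6, 13 of 29 for Elf1 and 1 of 15 for Elf4. The 5′ UTR exon class held 27 Etv6, 14 Elf1 and 13 Elf4 peaks and reached 87.3, 32.7 and 37.5 kb from the start, so it is not limited to the exon itself. By the mean of all 9 libraries, the strongest peaks outside the TSS class were in intron 1 of Ets1 (chr9:32524862-32525885, 28.5 ± 2.02 CPM in WT) and in intron 1 of Fli1 (chr9:32294599-32295717, 26.7 ± 5.37 CPM in WT). In Etv6 it was a 5′ UTR exon peak 12135 bases from the start (chr6:133997853-133998608, 19.96 ± 1.65 CPM in WT). In WT alone, another intron 1 peak of Fli1 (30.01 ± 0.558 CPM) and peaks in introns 2 and 5 of Etv6 (21.8 ± 0.897 and 21.4 ± 3.25 CPM) were higher. Peaks of at least 10 CPM on average held 82.5% of the Ets1 signal, 80.2% for Elf4, 76.0% for Elf1, 75.6% for Fli1 and 57.3% for Etv6, so Etv6 had the largest share in weak peaks. The 219 peaks together took 0.172% to 0.187% of the reads of a library.

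Levels were compared between genes per kb of peak width. The Fli1 promoter peak (chr9:32346751-32349244) averaged 30.5 ± 4.14 CPM per kb in Stat6_KO, 33.6 ± 0.559 in Il21e_KO and 33.6 ± 0.419 in WT (SD, n = 3 each). The Etv6 promoter peak (chr6:133984654-133986838) averaged 26.7 ± 3.93 CPM per kb in Stat6_KO, 30.2 ± 6.81 in Il21e_KO (26.3 without Il21e_KO 1) and 31.2 ± 2.67 in WT. In WT they stood above 98.0% and 94.3% of the 12801 genes with a TSS peak. The Elf1 TSS peak, at the inner start, followed with 23.6 ± 4.48 CPM per kb in WT (58.1%), then Ets1 with 23.3 ± 8.88 (56.8%) and Elf4 with 16.9 ± 2.17 (23.4%). Fli1 was above Etv6 in 8 of 9 libraries and Etv6 above Elf1 in 9 of 9. Elf1 exceeded Ets1 in 6 of 9 and Ets1 exceeded Elf4 in 4 of 9, and the values of every pair of neighbours in this order overlapped in WT.

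The Ets1 promoter peak (chr9:32503192-32504024) varied the most, with 17.0, 13.5 and 11.6 CPM in Stat6_KO, 43.8, 12.6 and 15.5 CPM in Il21e_KO and 26.3, 20.2 and 11.6 CPM in WT. Il21e_KO 1 was the highest of the 9, and the genotypes overlapped. Its value put Ets1 above Elf1 in the mean order of Il21e_KO, 28.8 ± 20.7 against 26.2 ± 7.44 CPM per kb. Without that library Ets1 averaged 16.9 CPM per kb in Il21e_KO, below Elf1 at 21.9 and Elf4 at 21.7, and its log2 fold change against WT was -0.37, against 0.15 with it. Over all peaks of a gene the order was another one: in WT, Ets1 had 20.6 ± 0.540, Elf1 19.997 ± 0.794, Elf4 19.8 ± 1.01, Fli1 16.04 ± 0.480 and Etv6 13.2 ± 1.22 CPM per kb of summed peak width. Fli1 and Etv6, the highest at the promoter, were thus the lowest over their whole set of peaks, each below the gene before it in 9 of 9 libraries.

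**Figure D2:**
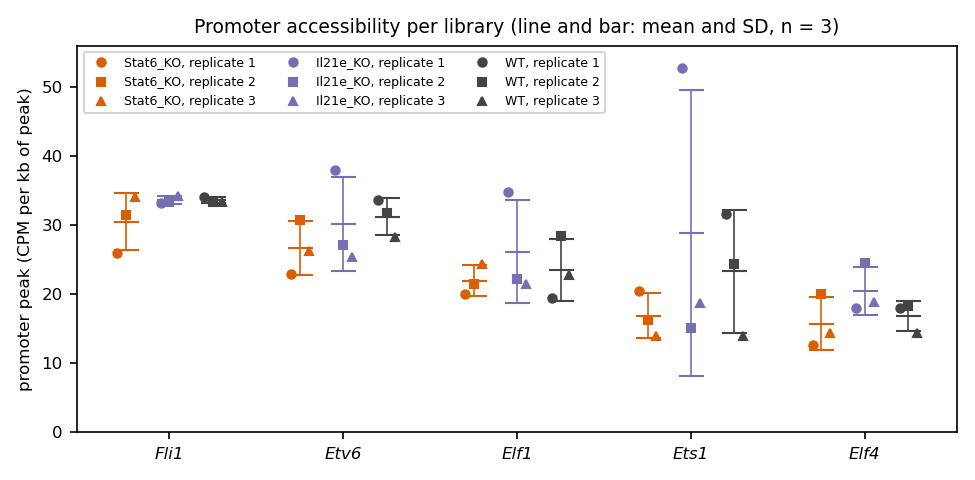
Promoter peak in CPM per kb of peak width for each gene and library, with the mean and SD of 3 libraries per genotype. Fli1 lies at 26.0 to 34.3 CPM per kb, and Il21e_KO 1 stands at 52.7 CPM per kb for Ets1, above the other 8 libraries.

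The share of a gene's reads that lies in its promoter peak does not depend on how a library is scaled. For Fli1 it was 18.0 ± 1.78% in Stat6_KO, 19.1 ± 0.464% in Il21e_KO and 19.6 ± 0.743% in WT. For Etv6 it was 13.1%, 17.4% and 14.8% in Stat6_KO, 30.9%, 16.9% and 15.7% in Il21e_KO and 20.8%, 17.0% and 14.7% in WT. Il21e_KO 1 was the highest library, without it the Il21e_KO mean was 16.3%, and the others overlapped. For Elf4 it was 8.67 ± 1.49% in Il21e_KO and 7.04 ± 0.634% in WT, with every Il21e_KO library above every WT library. Exact 2-sided permutation tests over 3 against 3 libraries cannot go below p = 0.1, which of the 10 comparisons of a share only that of Elf4 in Il21e_KO reached, and the other 9 gave 0.2 to 0.9. Adjusted over the 10 comparisons (Benjamini-Hochberg), the exact permutation p was 0.889 or 0.9 in each.

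Across the 3 genotypes no peak of these genes passed the test. It was limma-trend on log2(CPM + 1), and a call needed an adjusted p, over all 48287 peaks with enough reads, below a false discovery rate of 0.05. Of the 219 peaks 102 had enough reads, 32 for Ets1, 22 for Fli1, 20 for Etv6, 19 for Elf1 and 9 for Elf4, and these held 87.4% of the members' signal. Their median was 13 to 24 reads per library, and the other 117 peaks averaged at most 5.00 CPM. In Stat6_KO against WT 0 of 102 were called (0.0104% of all tested peaks), in Il21e_KO against WT 0 of 102 (0% of all) and in Stat6_KO against Il21e_KO 0 of 102 (0.0104% of all). The edgeR quasi-likelihood test, the DESeq2 Wald test and limma-voom on the recovered reads called 0 as well. At an unadjusted p under 0.05, Stat6_KO against WT gave 3 of 102 (2.94%, against 3.29% of all peaks), Il21e_KO against WT 6 (5.88%, against 3.52%) and Stat6_KO against Il21e_KO 8 (7.84%, against 5.68%). Without Il21e_KO 1 these counts were 13 (12.7%, against 9.21% of all peaks), 9 (8.82%, against 6.9%) and 9 (8.82%, against 3.89%), and 0 of 102 were called by adjusted limma-trend p. The groups did not overlap at 16 of 102 peaks (15.7%, against 13.2% of all), 10 (9.80%, against 7.28%) and 10 (9.80%, against 11%) in the same order of comparisons. The log2 fold change was below 0 at 58 (50.8% of all), 56 (54.8% of all) and 45 (45.2% of all) of the 102. Both comparisons with WT share the WT libraries, and neighbouring peaks are not independent, since 23 pairs of the 219 touch each other.

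**Figure D3:**
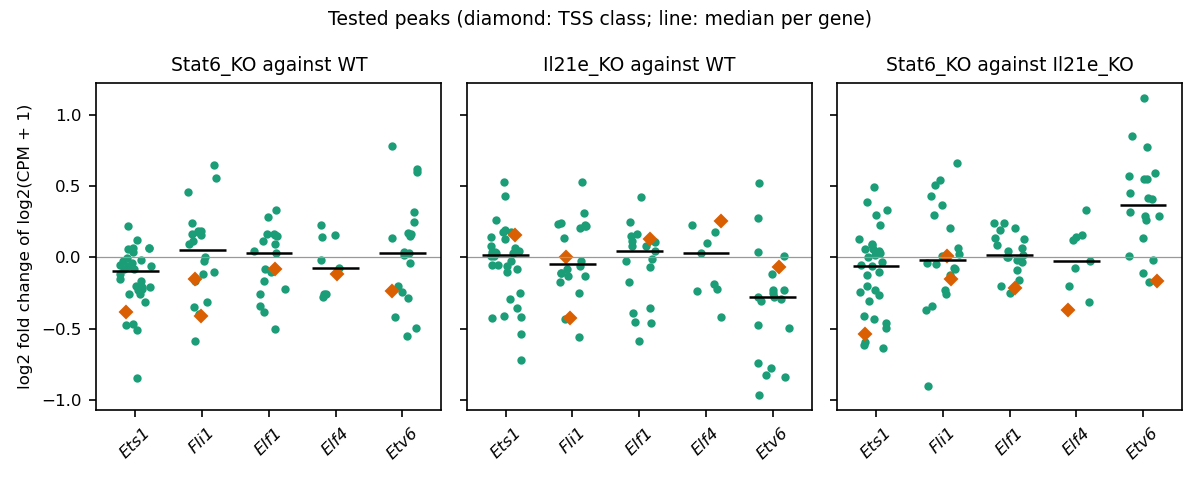
Log2 fold change of each of the 102 tested peaks on the log2(CPM + 1) scale, by gene and comparison, with diamonds for TSS peaks and a line at each gene's median. Ets1 has a median of -0.10 in Stat6_KO against WT, and Etv6 one of -0.28 in Il21e_KO against WT and 0.37 in Stat6_KO against Il21e_KO, and no peak passed the adjusted test.

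At Ets1, the factor needed for resting T cells, accessibility summed over all 56 peaks was 473, 489 and 483 CPM in Stat6_KO, 640, 499 and 482 CPM in Il21e_KO and 548, 538 and 520 CPM in WT. Each Stat6_KO sum lay below each WT sum, as did those of Il21e_KO 2 and Il21e_KO 3, and Il21e_KO 1 was the highest of the 9. The sum differed by -0.15 ± 0.08 in log2 between Stat6_KO and WT (SE, 95% interval -0.32 to 0.02), which was not called over the 15384 genes tested in the same way (limma-trend adjusted p = 1.00). Of the 5 gene sums, 0 were called in Stat6_KO against WT (0.013% of all genes), 0 in Il21e_KO against WT (0%) and 0 in Stat6_KO against Il21e_KO (0.0195%). At an unadjusted p under 0.05 the counts were 0 (3.37% of all genes), 1 (2.89%) and 1 (5.4%) of 5, in both cases Etv6. Without Il21e_KO 1, the Ets1 difference had an SE of 0.04 (limma-trend adjusted p = 0.0728), and with only Stat6_KO and WT in the fit the adjusted limma-trend p was 0.110, and over all alternatives tried it ran from 0.0728 to 1.00. The Il21e_KO sum differed from WT by 0.00 ± 0.08 with all libraries and by -0.13 ± 0.04 without Il21e_KO 1 (limma-trend adjusted p = 0.380).

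The Ets1 difference was larger in the 26 peaks of at least 10 CPM on average, which summed to 396 ± 5.03 CPM in Stat6_KO and 442 ± 16.4 CPM in WT. The 30 weaker peaks summed to 86.3 ± 3.35 CPM in Stat6_KO and 93.4 ± 2.54 CPM in WT. Of the 32 tested Ets1 peaks 25 were lower in Stat6_KO than in WT (78.1%, against 50.8% of all tested peaks). Their median log2 fold change was -0.10, against -0.0046 over all tested peaks. In Il21e_KO 14 of the 32 were lower than in WT (43.8%, against 54.8% of all). Without Il21e_KO 1 this count was 22 (68.8%, against 49.8% of all). The assigned peaks summed to 314 ± 14.6 CPM in Stat6_KO and 359 ± 29.2 CPM in WT, and the flanking ones to 168 ± 6.61 CPM in Stat6_KO and 176 ± 15.1 CPM in WT. The smallest p belonged to a peak in intron 5 (chr9:32551114-32551747) with 12.5, 9.42 and 9.79 CPM in Stat6_KO, 26.7, 10.1 and 11.1 CPM in Il21e_KO and 18.4, 17.9 and 23.2 CPM in WT. Stat6_KO lay below WT without overlap, by -0.85 ± 0.29 in log2 (limma-trend adjusted p = 1.00, and 0.0615 without Il21e_KO 1). The smallest p in Stat6_KO against Il21e_KO was at another intron 5 peak (chr9:32554932-32555591), by -0.61 ± 0.26 (limma-trend adjusted p = 0.780). Without Il21e_KO 1 that value was -0.31 ± 0.22. In Il21e_KO against WT the smallest p was at an intergenic peak (chr9:32467797-32468601), by -0.72 ± 0.35, which was not called. Without Il21e_KO 1 that value was -0.20 ± 0.24. The share of reads in TSS peaks was 31.6%, 33.3% and 33.1% in Stat6_KO and 36.4%, 35.6% and 32.3% in WT, and the CD4 T cell marker sums were 1438, 1508 and 1535 CPM in Stat6_KO and 1699, 1632 and 1497 CPM in WT. Both were lower in Stat6_KO than in WT 1 and WT 2, as was Ets1, and their part in the Ets1 difference was not tested.

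**Figure D4:**
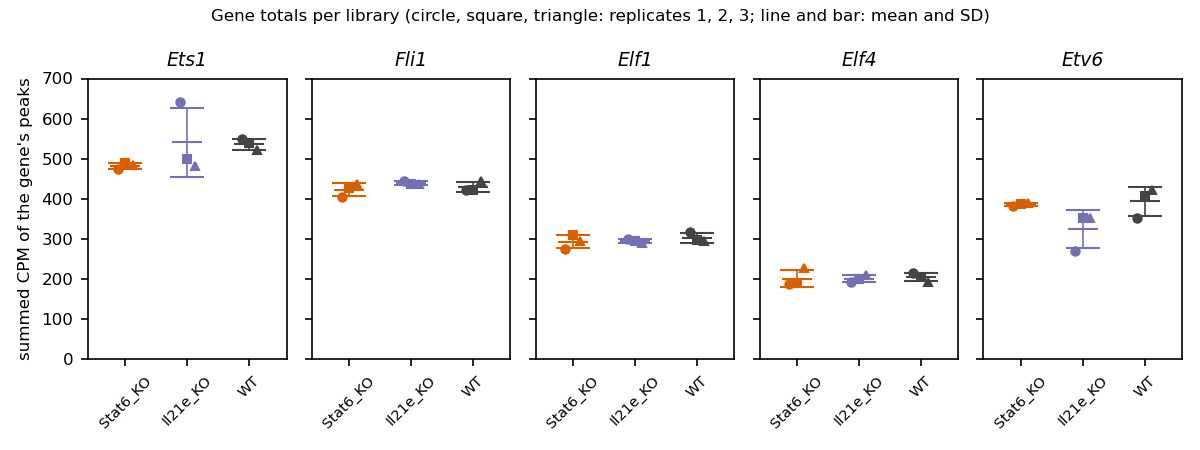
Summed CPM over all peaks of a gene in each library, with the mean and SD of the 3 libraries of a genotype. Ets1 lies at 473 to 489 CPM in Stat6_KO, at 499 and 482 CPM in Il21e_KO 2 and Il21e_KO 3 and at 520 to 548 CPM in WT. Il21e_KO 1 is the highest for Ets1, 640 CPM, and the lowest for Etv6, 269 CPM.

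At Etv6 the sum over 66 peaks was 382, 386 and 390 CPM in Stat6_KO, 269, 351 and 352 CPM in Il21e_KO and 352, 406 and 422 CPM in WT. Every Il21e_KO library lay below every WT library, the highest of Il21e_KO at 352.3 and the lowest of WT at 352.5 CPM, and below every Stat6_KO library. Il21e_KO differed from WT by -0.29 ± 0.09 in log2 (SE, 95% interval -0.48 to -0.09) and was not called (limma-trend adjusted p = 0.999). Without Il21e_KO 1 the difference was -0.16 ± 0.06 (limma-trend adjusted p = 0.380, the lowest over the alternatives, which reached 1.00). Stat6_KO differed from Il21e_KO by 0.26 ± 0.09 (limma-trend adjusted p = 0.763), and by 0.13 ± 0.06 without Il21e_KO 1. Of the 20 tested Etv6 peaks 16 were lower in Il21e_KO than in WT (80.0%, against 54.8% of all tested peaks), with a median of -0.28 in log2, against -0.028 over all. Without Il21e_KO 1, 13 of the 20 were lower (65.0%, against 49.8% of all), with a median of -0.10, and the median in Stat6_KO against Il21e_KO was 0.16, against 0.37 with it.

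In Il21e_KO 1 the weak Etv6 peaks were low and the promoter was high. The 56 peaks with a mean under 10 CPM summed to 77.2, 147 and 156 CPM in Il21e_KO and 135, 174 and 189 CPM in WT, and 20 of them had no read in Il21e_KO 1, against 2 to 9 in each other library. The promoter held 82.9 CPM in Il21e_KO 1, its highest value of the 9 libraries. That library was also the shallowest and had the highest share of TSS reads. WT 2, the next shallowest with 1284426 reads in peaks, held 174 CPM in the weak peaks, and Il21e_KO 3, the deepest, 156 CPM. Il21e_KO 1 was also the highest of the 9 for CD4 T cell markers, with 1927 CPM against 1438 to 1699 CPM in the others. It was the lowest for B cell markers, 74.3 against 110 to 176 CPM, myeloid markers, 138 against 177 to 214 CPM, CD8 T and NK cell markers, 119 against 128 to 162 CPM, and erythroid markers, 68.6 against 80.2 to 102 CPM. The part of these measures in the Etv6 and Ets1 values of Il21e_KO 1 was not tested. The smallest p in Il21e_KO against WT was at a peak 31173 bases inside Etv6 (chr6:134016891-134017972), with 8.58, 10.7 and 12.2 CPM in Il21e_KO and 14.1, 21.0 and 23.9 CPM in WT. Il21e_KO lay below WT without overlap, with or without Il21e_KO 1, and the log2 fold change was -0.83 ± 0.24 (limma-trend adjusted p = 1.00).

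In intron 4 of Etv6 a peak (chr6:134197301-134197809) went the other way. It held 12.5, 10.6 and 14.1 CPM in Stat6_KO, 8.58, 11.3 and 10.5 CPM in Il21e_KO and 6.73, 7.79 and 5.80 CPM in WT, so both knockouts lay above WT without overlap. The log2 fold change was 0.78 ± 0.24 in Stat6_KO against WT (limma-trend adjusted p = 1.00) and 0.52 ± 0.24 in Il21e_KO against WT (limma-trend adjusted p = 1.00), relative to the same WT libraries. An intergenic peak past the end of Etv6 (chr6:134223780-134224375) had the smallest p in Stat6_KO against Il21e_KO. It held 15.3, 13.5 and 11.01 CPM in Stat6_KO and 1.91, 8.19 and 9.43 CPM in Il21e_KO, a log2 fold change of 1.12 ± 0.37 (limma-trend adjusted p = 0.780). Without Il21e_KO 1, which had 2 reads there, it was 0.53 ± 0.24 (limma-trend adjusted p = 1.00). It lies nearer the listed start of Bcl2l14 than that of Etv6.

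Fli1, the blood cell factor, varied little in its sum, which was 405, 426 and 436 CPM in Stat6_KO, 444, 437 and 436 CPM in Il21e_KO and 421, 422 and 444 CPM in WT. The log2 fold change was -0.02 ± 0.05 in Stat6_KO against WT (95% interval -0.13 to 0.08) and 0.03 ± 0.05 in Il21e_KO against WT (95% interval -0.07 to 0.14). Its promoter held 64.8, 78.3 and 85.0 CPM in Stat6_KO, 82.9, 83.2 and 85.4 CPM in Il21e_KO and 85.1, 83.3 and 83.2 CPM in WT, with only Stat6_KO 1 and Stat6_KO 2 below the other libraries. The 18 flanking peaks summed to 100.01, 98.3 and 97.9 CPM in Stat6_KO, 81.9, 94.5 and 98.2 CPM in Il21e_KO and 80.8, 82.5 and 88.3 CPM in WT. Stat6_KO lay above WT there without overlap, a sum that was not tested.

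Single Fli1 peaks differed in both directions. An intron 1 peak (chr9:32323867-32324449) held 3.98, 3.53 and 6.12 CPM in Stat6_KO and 7.62, 9.45 and 10.5 CPM in Il21e_KO, lower by -0.90 ± 0.30 in log2 without overlap (limma-trend adjusted p = 0.780). An intergenic peak past the gene's end (chr9:32212736-32213359), nearer the start of Kcnj1 than that of Fli1, held 11.9, 10.01 and 8.56 CPM in Stat6_KO and 7.95, 5.45 and 6.45 CPM in WT (log2 fold change 0.55 ± 0.28, limma-trend adjusted p = 1.00). The peak upstream of the gene with the smallest p in Il21e_KO against WT (chr9:32397466-32397900) held 10.5, 8.82 and 9.99 CPM in Il21e_KO and 7.34, 7.01 and 5.16 CPM in WT. The groups did not overlap (log2 fold change 0.53 ± 0.25, limma-trend adjusted p = 1.00).

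The Elf1 sum was 276, 309 and 294 CPM in Stat6_KO, 300, 296 and 289 CPM in Il21e_KO and 316, 297 and 294 CPM in WT. The genotypes overlapped, with log2 fold changes of -0.05 ± 0.06 in Stat6_KO against WT (95% interval -0.17 to 0.08) and -0.04 ± 0.06 in Il21e_KO against WT (95% interval -0.16 to 0.09). A single peak 10387 bases past the inner start (chr14:79925868-79926338) had the smallest p of Elf1 against WT in both knockouts. It held 14.2, 14.7 and 11.01 CPM in Stat6_KO, 12.4, 13.2 and 11.7 CPM in Il21e_KO and 21.4, 19.5 and 16.8 CPM in WT. Both knockouts lay below WT without overlap, by -0.50 ± 0.20 (limma-trend adjusted p = 1.00) in Stat6_KO and by -0.59 ± 0.20 (limma-trend adjusted p = 1.00) in Il21e_KO, against the same WT libraries.

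The Elf4 sum was 187, 189 and 226 CPM in Stat6_KO, 192, 200 and 210 CPM in Il21e_KO and 214, 205 and 193 CPM in WT, again with overlap. Its log2 fold change was -0.03 ± 0.08 in Stat6_KO against WT (95% interval -0.20 to 0.14) and -0.02 ± 0.08 in Il21e_KO against WT (95% interval -0.19 to 0.15). The inner peak at 8315 to 9614 bases was the Elf4 peak with the smallest p for Stat6_KO, which lay below both other genotypes without overlap. It differed by -0.28 ± 0.16 from WT (limma-trend adjusted p = 1.00) and by -0.31 ± 0.16 from Il21e_KO (limma-trend adjusted p = 0.780). For Il21e_KO against WT the smallest p was at the peak 37548 bases inside, by -0.22 ± 0.18 (limma-trend adjusted p = 1.00) and by -0.34 ± 0.16 without Il21e_KO 1 (limma-trend adjusted p = 0.704), with 38.1, 25.8 and 32.7 CPM in Il21e_KO and 39.8, 35.8 and 36.1 CPM in WT.

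A list of 21 further mouse ETS genes was read in the same way. Of these 17 had a listed peak, 12 a TSS peak, and 44 of their 103 peaks were tested. None passed the adjusted limma-trend test in any of the 3 comparisons, with 2 peaks at an unadjusted p under 0.05 in Stat6_KO against WT (4.55%, against 3.29% of all tested peaks), 0 in Il21e_KO against WT (0%, against 3.52%) and 3 in Stat6_KO against Il21e_KO (6.82%, against 5.68%). Elf2, a relative of Elf1, had the highest promoter level of the ETS genes with a TSS peak, 35.003 ± 3.46 CPM per kb in WT, above 99.1% of genes. Spi1, which encodes the myeloid and B cell factor PU.1, had 4.37 ± 3.87 CPM per kb in WT. Gabpb1, a partner subunit of GABPA, had 20.4 ± 0.597 CPM per kb at its promoter in Stat6_KO, 25.6 ± 2.50 in Il21e_KO and 27.9 ± 3.40 in WT, and 0 of its 5 tested peaks were called. At an unadjusted limma-trend p under 0.05 it had 1, 0 and 1 of 5, in the same order of comparisons. Gabpb2, the other subunit, had no TSS peak, and 0 of its 3 tested peaks were called. At that unadjusted p it had 0, 1 and 1 of 3 (3.29%, 3.52% and 5.68% of all tested peaks).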

How the data were processed

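ATAC-seq libraries of naive CD4+ T cells from 3 genotypes, 3 libraries each, were analysed from 1 deposited table of 115727 peaks on mm9. Its values are CPM, which the authors divided by each library's own total over the peaks, since all deposited columns have the same sum. Bowtie 1.3.0, MACS2 2.0 and HOMER are listed, per the submitters' processing notes, with no roles; how peaks were merged or filtered is not given in the sources used here. The gene columns were read by content, because their headers are shifted. In each library 100% of the values were multiples of its smallest step, within 0.01 read, and that step was taken as 1 read, worth 0.555 to 0.953 CPM. A count of 0 allows 3 reads, 1.66 to 2.86 CPM. This floor covers counting error only; the 95% intervals of fold changes come from limma-trend and measure the spread between libraries.

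Peaks, and sums of a gene's assigned peaks and intergenic peaks within 50 kb, were kept by filterByExpr of edgeR 4.0.16 (minimum count 10, minimum total 15), which left 48287 peaks and 15384 genes. They were tested on log2(CPM + 1) with limma-trend (limma 3.58.1, R 4.3.3) over all 9 libraries with Benjamini-Hochberg adjustment over all of them, at a false discovery rate of 0.05. Fold changes on this scale understate changes at low values. Alternatives were pseudocounts of 0.25 and 5, no filter, TMM and DESeq2 size factors, edgeR, DESeq2 1.42.0 and limma-voom on recovered reads, a replicate block, a fit of only the compared genotypes, each library left out, and other flanking windows. Promoter shares were compared by exact permutation in Python 3.11.15 with scipy 1.17.1. The procedure was checked on simulated data with large planted changes and no library like Il21e_KO 1. That check does not show how well smaller changes are found.

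For each gene the text names the TSS peak and the other peak with the highest mean, and the peak with the smallest p per comparison; the Atp5j and Wbp4 peaks, the Elf4 peak past the gene's end and the peaks higher in WT alone lie outside this rule and were added later, with their values known. The genes and lists were chosen with earlier results of these data known. The promoter sequences are from RefSeq, GRCm38.p6; no mm9 sequence was used here. Of the 2 genes per ETS gene whose sums followed it most closely, 1 is not reported here.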

Additional observations from a re-analysis of the deposited data

How the results depend on the processing

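No peak or sum of the 5 genes with peaks was called in any of the 3 comparisons under any alternative. The 40 log2 fold changes of the gene sums, the TSS peaks and the peaks with the smallest p were recomputed, giving 790 values. Over these the lowest adjusted p was 0.0615 (limma-trend, without Il21e_KO 1). Counts over all tested peaks depended on the setting more. In Stat6_KO against WT, 5 peaks and 2 gene sums were called, 38 and 47 with only these genotypes in the fit, 3 to 61 and 0 to 70 leaving out 1 library. In Il21e_KO against WT, where 0 and 0 were called, no filter gave 1 peak, and leaving out 1 library 0 to 2 peaks and 0 to 27 gene sums. In Stat6_KO against Il21e_KO, 5 peaks were called, 8 with a pseudocount of 5, 16 with no filter, 12 with edgeR, 3 with limma-voom and 4 to 17 leaving out 1 library. Its 3 gene sums became 1 with limma-voom, 0 with only these genotypes and 0 to 8 leaving out 1 library. The cause was not tested.

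Deviations of same-numbered libraries from their group means had correlations of -0.19 to 0.25, and those of differently numbered libraries -0.30 to 0.24. These ranges cannot decide whether the numbers mark a pairing. With the replicate number as a block, the 3 gene sums called in Stat6_KO against Il21e_KO became 0, and no peak or sum of the ETS genes was called.

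The promoter order of the 5 genes kept 3 ranks in the Il21e_KO mean; by all peaks per kb, 0 ranks were kept in WT, 0 in Stat6_KO and 1 in Il21e_KO. Of the 40 log2 fold changes of ETS sums and peaks, 13 turned direction under at least 1 alternative, the largest turned value being -0.37 for the Ets1 promoter in Il21e_KO against WT without Il21e_KO 1. The Ets1 sum in Il21e_KO against WT was -0.0069 with edgeR, -0.038 with limma-voom and -0.0054 with a 100 kb window. The Elf4 sum in Stat6_KO against Il21e_KO was 0.014 with that window. The Fli1 promoter in Il21e_KO against WT was 0.049 with TMM, 0.053 with DESeq2 size factors, 0.039 with edgeR, 0.050 with the DESeq2 Wald test and 0.0034 with limma-voom.

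Leaving out 1 library gave these ranges of log2 fold change for sums: Ets1 in Il21e_KO against WT -0.13 to 0.078, Fli1 in Stat6_KO against WT -0.047 to 0.0071, Elf4 in Stat6_KO against WT -0.11 to 0.021, Etv6 in Stat6_KO against WT -0.10 to 0.027, Elf4 in Il21e_KO against WT -0.061 to 0.012, and in Stat6_KO against Il21e_KO Elf1 -0.050 to 0.031 and Elf4 -0.092 to 0.043. For promoter peaks they were, in Il21e_KO against WT, Ets1 -0.37 to 0.49, Elf1 -0.087 to 0.26, Etv6 -0.24 to 0.042 and Fli1 -0.014 to 0.00998, and in Stat6_KO against WT, Elf1 -0.21 to 0.052 and Elf4 -0.29 to 0.016. For promoter shares, in percentage points, they were -0.722 to 1.44 for Ets1, -0.296 to 1.66 for Elf1 and -1.21 to 6.34 for Etv6 in Il21e_KO minus WT, and -0.996 to 0.485 for Elf1 and -1.44 to 0.364 for Elf4 in Stat6_KO minus WT. A tested ETS peak had a median of 13 to 24 reads per library, which limits what single peaks can show.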

Other observations

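For each gene, genes outside the ETS family whose summed accessibility followed it closely over the 9 libraries are given, among genes of at least 50 CPM on average and leaving out genes within 100 kb, which share peaks with it. They were picked as the closest of 8632 to 8634 genes, whose median r lay between -0.065 and 0.054. Picking the highest of so many genes over 9 libraries gives high values of r by itself, so closeness beyond that was not tested. Pearson's r is given as a description, and depth and the share of TSS reads differ over the same libraries. For Ets1 they were Zbtb11 (r = 0.988, and 0.962 without Il21e_KO 1) and Atf2 (0.980, and 0.942 without it). For Fli1 they were Ptpre (0.937, and 0.934 without it) and Lman2l (0.921, and 0.906 without it). For Elf1 they were Usp2 (0.951, and 0.950 without it) and Ttll10 (0.894, and 0.894 without it). Elf4 was followed by Pcgf2 (0.894, and 0.886 without it). Etv6 was followed by Mir1928 (0.980, and 0.919 without it) and Hcfc2 (0.971, and 0.874 without it). Between the ETS genes themselves r lay between -0.69 for Ets1 and Etv6 and 0.45 for Ets1 and Elf1, and the value of -0.69 became 0.14 without Il21e_KO 1.

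The 9 intergenic peaks between the Fli1 and Ets1 windows summed to 114, 123 and 103 CPM in Stat6_KO, 131, 101 and 114 CPM in Il21e_KO and 124, 100.4 and 107 CPM in WT, and the genotypes overlapped.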
